A study of Mus musculus with 6 samples.

Results

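The genes of cholesterol and fatty acid synthesis were followed in mouse Glu-tag cells, an enteroendocrine line, with a hairpin against Irs2 and with a control hairpin. The set holds 37 genes picked by name from a deposited table of 54532 genes. It comprises 18 enzymes of the sterol branch, 6 regulators and sterol carriers, and 13 enzymes of the fatty acid branch. All 37 were among the 13472 genes with enough counts to be tested, so no member was lost to the filter on low counts.

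Cholesterol is built from acetyl-CoA by way of mevalonate, isoprenoid diphosphates, squalene and lanosterol. Fatty acids start from the same acetyl-CoA, which is carboxylated to malonyl-CoA and then joined into chains that elongases and desaturases modify. The transcription factors SREBP-2 and SREBP-1, encoded by Srebf2 and Srebf1, drive both branches, with a known bias of SREBP-2 to sterol genes and of SREBP-1c to fatty acid genes. Together with Scap, they are held in the endoplasmic reticulum by the Insig proteins while sterols are plentiful. When sterols run low, these factors are released to the nucleus. Insulin is a known inducer of SREBP-1c in liver.

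The study asked which transcripts change when Irs2, an adaptor downstream of the insulin and IGF receptors, is silenced in this model of small intestinal neuroendocrine tumours. RNA was sequenced from 3 libraries labelled sh-IRS2, with the genotype IRS2 Knockdown, and from 3 libraries labelled sh-control, with the genotype WT. The groups are called shIRS2 and shControl here, with the number 1 to 3 of each title, as in shIRS2 3. The knockdown is described as stable, all cells belong to the same line, and the labels give no treatment, hairpin sequence or number of clones. The series calls the libraries biological triplicates, but no label ties a library to a separate culture or day. The p-values thus set a difference only against the spread between these libraries, which may in part be technical.

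The shIRS2 libraries held 15654814 to 16985361 counts and the shControl libraries 14991019 to 19790073. Irs2 had 31.4, 29.2 and 38.6 CPM in the libraries labelled shIRS2, against 31.0, 23.0 and 34.2 CPM in the shControl libraries. CPM here are counts per 1000000 counts of a library after TMM scaling, which aligns libraries on the bulk of their genes. The log2 fold change of Irs2 was 0.17 (SE 0.16, 95% interval -0.20 to 0.54), and the two-sided p was 0.5 by an exact permutation test, which cannot go under 0.1 with 3 libraries a group. Irs2 RNA thus did not show the decrease that the label implies, though the interval includes a small one. Directions below refer to libraries by their label. The cell type was also not matched by its markers, since Gcg, Pcsk1, Chga, Neurod1 and Pyy of 16 enteroendocrine markers had 0 counts in all 6 libraries, which allows up to 0.0295 CPM each, and 3 of the 16, Pax6, Foxa2 and Cpe, reached 1 CPM. Among 14 fibroblast markers 9 reached 1 CPM, while Col1a1, Dcn and Acta2 averaged 0.205, 0.254 and 0.119 CPM, and Thy1 and Postn had 0 counts. Of 8 leukocyte markers 2 reached 1 CPM, Cd68 and Lyz2, and Cd3e, Adgre1 and Itgam had 0 counts. In these bulk samples, fewer cells of a type and less RNA per cell cannot be told apart.

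The start regions of 4 sterol genes on which the results below turn are shown, since Idi1, Hmgcs1 and Cyp51 differed between the libraries numbered 3 and 1 and Hsd17b7 between those numbered 2 and the rest. Each runs from 250 bases before to 50 bases after the RefSeq start, 5′ to 3′ on the strand of the gene, in build GRCm38.p6. Idi1 lies at chr13:8885356-8885655 on the plus strand, Hmgcs1 at chr13:119690101-119690400 on the plus strand, Cyp51 at chr5:4104648-4104947 on the minus strand and Hsd17b7 at chr1:169969156-169969455 on the minus strand. Capitals mark the core of the sterol regulatory element (TCACNCCAC), the CCAAT box (CCAAT) and the E-box (CACGTG), each on either strand.
Idi1: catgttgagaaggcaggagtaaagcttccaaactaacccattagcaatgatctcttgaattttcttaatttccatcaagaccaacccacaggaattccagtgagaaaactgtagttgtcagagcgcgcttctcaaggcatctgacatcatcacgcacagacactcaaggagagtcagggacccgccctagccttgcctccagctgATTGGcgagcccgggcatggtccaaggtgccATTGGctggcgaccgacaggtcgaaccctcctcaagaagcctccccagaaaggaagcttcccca
Hmgcs1: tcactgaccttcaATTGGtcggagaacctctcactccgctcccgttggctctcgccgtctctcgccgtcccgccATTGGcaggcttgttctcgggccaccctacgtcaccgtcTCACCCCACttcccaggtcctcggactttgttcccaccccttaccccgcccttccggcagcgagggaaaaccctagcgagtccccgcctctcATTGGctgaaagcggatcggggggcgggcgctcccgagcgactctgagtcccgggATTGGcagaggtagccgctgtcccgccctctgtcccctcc
Cyp51: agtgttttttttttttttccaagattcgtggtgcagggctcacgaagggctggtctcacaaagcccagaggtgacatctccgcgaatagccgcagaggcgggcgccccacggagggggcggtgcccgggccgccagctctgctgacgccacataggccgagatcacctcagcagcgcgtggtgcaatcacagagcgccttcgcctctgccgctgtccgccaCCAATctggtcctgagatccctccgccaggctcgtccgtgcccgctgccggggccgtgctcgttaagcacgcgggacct
Hsd17b7: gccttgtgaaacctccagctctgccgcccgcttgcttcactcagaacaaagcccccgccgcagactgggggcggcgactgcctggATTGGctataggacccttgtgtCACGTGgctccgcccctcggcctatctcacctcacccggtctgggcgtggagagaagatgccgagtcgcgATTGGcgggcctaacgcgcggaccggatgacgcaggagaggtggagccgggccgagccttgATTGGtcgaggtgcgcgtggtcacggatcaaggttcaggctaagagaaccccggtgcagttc

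RefSeq promoters were at hand for 30 of the 37 genes, and there was none for Scd1, Scd2, Stard4, Fads1, Fdps, Fdft1 and Sqle. A CCAAT box stood in the promoter of 25 of the 30 genes, or 83.3%, and in 14 of the 15 sterol enzymes, against 41.1% of 27025 genes with a promoter of the same length. The GC box (GGGCGG, either strand, not capitalised) stood in 24 of the 30 genes, or 80.0%, against 38.2% of all genes. An E-box stood in 6 of the 30 genes, or 20.0%, against 8.09% of all. The sterol regulatory element core as spelled here was found in 1 of the 30, Hmgcs1, and in 1.44% of all genes. A gene with several starts counts once if any of its windows holds the letters, so more windows give more chances of a match. The 27025 genes were not limited to those tested here, whereas all members were tested, so the shares are not matched for expression. A match is a description of the letters in these windows and not evidence of binding.

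Per length of gene, the 5 highest levels all belonged to the fatty acid branch. Scd2, a stearoyl-CoA desaturase, had the highest level of the 37 genes, at 165 ± 23.8 FPKM in shIRS2 libraries and 183 ± 27.7 FPKM in shControl libraries (SD, n = 3 each). FPKM are counts per kilobase of the listed gene length per 1000000. Fasn, which assembles palmitate, followed at 76.4 ± 7.27 FPKM in shIRS2 and 84.0 ± 11.7 FPKM in shControl, and in every library it stood above Elovl5, an elongase of polyunsaturated chains, which had 61.6 ± 1.10 FPKM in shIRS2 and 61.7 ± 2.02 FPKM in shControl. The desaturases Scd1 and Scd2 are close paralogs, so reads may be divided between them with error. In the sterol branch the highest levels were those of the thiolase gene Acat2, at 30.1 ± 5.20 FPKM in shIRS2 and 31.3 ± 5.74 FPKM in shControl, and the lanosterol demethylase gene Cyp51, at 24.1 ± 6.37 FPKM in shIRS2 and 27.1 ± 4.61 FPKM in shControl.

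The lowest levels belonged to Tm7sf2, a sterol reductase, at 0.434 FPKM over all 6 libraries, to Acacb, the mitochondrial acetyl-CoA carboxylase, at 0.609 FPKM, to Fdps, which makes farnesyl diphosphate, at 0.766 FPKM, and to Acss2, a cytosolic acetyl-CoA synthetase, at 1.02 FPKM. Fdps had only 35 to 69 counts in shIRS2 libraries and 47 to 70 in shControl libraries. Its neighbours in the pathway stood far above it, with Idi1 at 11.5 FPKM and the squalene synthase gene Fdft1 at 6.99 FPKM. How the authors' counting treated reads shared with other copies is not given in the sources used here, so the level of Fdps is uncertain. Tm7sf2 shares 9356 bases with Vps51 on the same strand, and Acss2 overlaps Gss and Ggt7 on the opposite strand. The levels of Tm7sf2 and Acss2 are thus uncertain too. Among the regulators Srebf2 was at 43.3 ± 3.28 FPKM in shIRS2 and 45.8 ± 6.35 FPKM in shControl. Srebf1 was at 20.8 ± 2.69 FPKM in shIRS2 and 20.4 ± 4.75 FPKM in shControl, below Srebf2 in all 6 libraries. Insig1, a sterol-responsive retention protein, averaged 39.5 FPKM over all libraries and its paralog Insig2 14.2 FPKM.

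**Figure D1:**
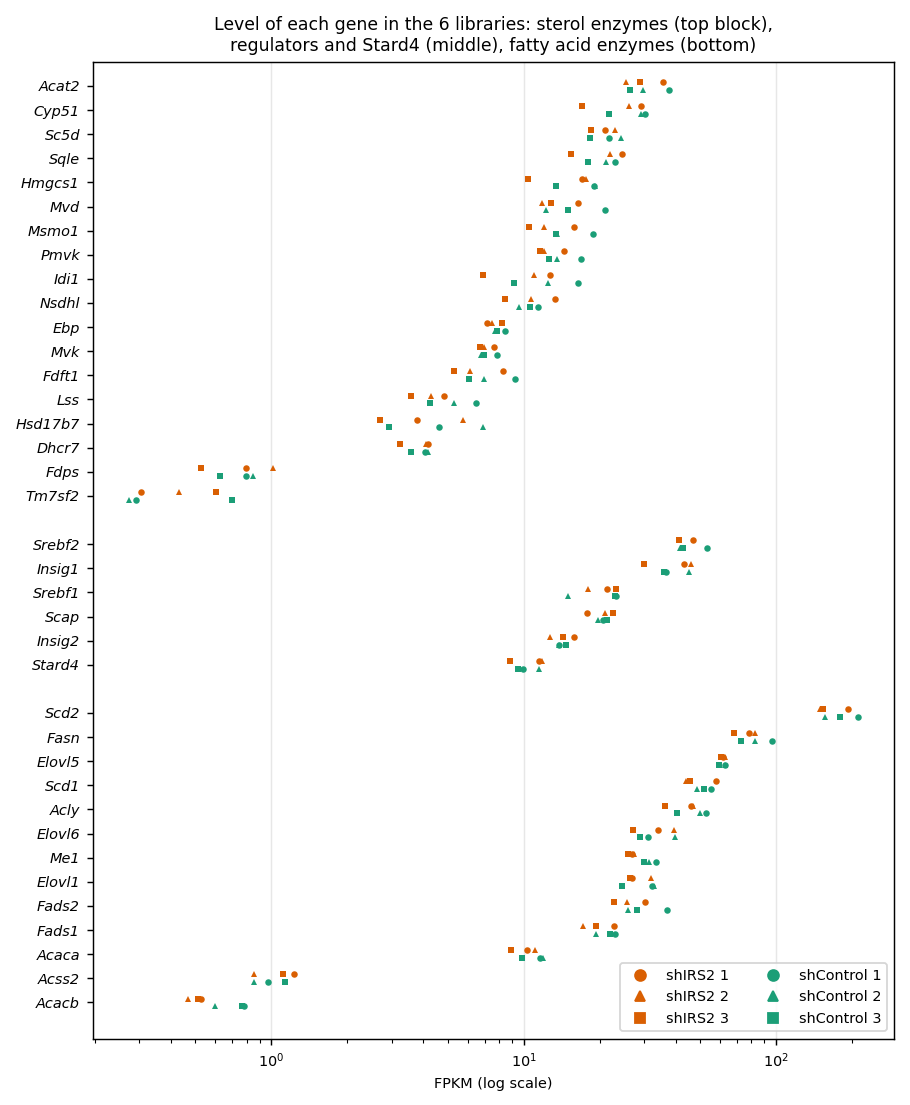
FPKM (x axis, log scale) of the 37 genes (rows) in the 6 libraries, with shIRS2 in orange above shControl in green and the marker shape giving the number. Scd2 lies near 174 FPKM and Tm7sf2 near 0.434 FPKM, and for most genes the colours mix while the squares (number 3) lie to the left of the circles (number 1).

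No gene of either branch passed the test between shIRS2 and shControl libraries. The edgeR quasi-likelihood test called 0 of the 37 genes at an adjusted p of 0.05, and 0 of 13472 genes in all (0.0%), with 262 genes at an unadjusted p under 0.05. DESeq2 called 2 of the 13472 genes and 0 of the 37, with 192 at an unadjusted p under 0.05. The log2 fold change was negative in 15 of 18 sterol enzymes (median -0.12), in 11 of 13 fatty acid enzymes (median -0.14) and in 2 of 6 regulators (median 0.01), against 6752 of all 13472 genes (median 0.00). The 95% interval excluded a 2-fold difference either way in 36 of the 37 genes, the exception being Hsd17b7, and extended 0.34 to either side at the median, in log2 units.

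Lss, which cyclises squalene epoxide to lanosterol, had 52.5, 46.6 and 38.8 CPM in shIRS2 1, 2 and 3, against 70.1, 57.2 and 46.3 CPM in shControl 1, 2 and 3. Each shIRS2 library lay below the shControl library of its number, but the groups overlapped. Its log2 fold change was -0.33 (SE 0.16, 95% interval -0.69 to 0.03), the most negative in the sterol branch. Idi1, which interconverts the isoprenoid units, had 44.8, 38.8 and 24.3 CPM in shIRS2 libraries, against 58.1, 44.1 and 32.2 CPM in shControl libraries. Its log2 fold change was -0.31 (SE 0.25). That value became -0.10 without shIRS2 3 and -0.09 without shControl 1, but -0.51 without shIRS2 1 and -0.51 without shControl 3. The lowest Idi1 level was in shIRS2 3 and the highest in shControl 1. Msmo1, a methylsterol oxidase, had 98.4, 74.1 and 64.7 CPM in shIRS2 libraries and 116, 83.6 and 83.0 CPM in shControl libraries, a log2 fold change of -0.25 (SE 0.18). Positive values belonged to Tm7sf2 (0.07), Fdps (0.05) and Nsdhl (0.04), 2 of which had under 100 counts in every library.

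In the fatty acid branch Me1 and Acacb had groups that did not overlap. Me1, the cytosolic malic enzyme that supplies NADPH, had 104, 106 and 100.3 CPM in shIRS2 libraries, against 130, 122 and 116 CPM in shControl libraries. All 3 shIRS2 libraries lay below all 3 shControl libraries, giving a log2 fold change of -0.24 (SE 0.08, 95% interval -0.43 to -0.06). Its edgeR p was 0.0163 unadjusted and 1.00 adjusted. Acacb, whose product malonyl-CoA restrains fatty acid import into mitochondria, had 5.13, 4.53 and 4.97 CPM in shIRS2 libraries from 73 to 87 counts, against 7.54, 5.78 and 7.42 CPM in shControl libraries from 113 to 132 counts. The log2 fold change of Acacb was -0.50 (SE 0.18, 95% interval -0.90 to -0.10), and its edgeR p was 0.0199 unadjusted and 1.00 adjusted. These were the only members at an unadjusted p under 0.05, or 2 of 37 (5.41%) and both lower, against 0.861% of all genes that were lower at that p. Over all genes 3.09% had all shIRS2 libraries below all shControl libraries, as 2 of the 37 did, and 3.26% had them above, as 0 of the 37 did.

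Fasn had 862, 908 and 751 CPM in shIRS2 libraries and 1061, 909 and 802 CPM in shControl libraries, a log2 fold change of -0.14 (SE 0.12). The values overlapped, with shIRS2 2 and shControl 2 nearly equal. The log2 fold change was -0.15 (SE 0.13) for Acly, which splits citrate to acetyl-CoA, and -0.14 (SE 0.11) for Acaca, the cytosolic carboxylase. Elovl5 had 219, 222 and 214 CPM in shIRS2 and 222, 223 and 210 CPM in shControl, the log2 fold change being -0.002 (SE 0.08) with the narrowest interval of the 37 genes. The regulators Srebf1 (0.03, SE 0.17), Scap (-0.004, SE 0.10), Insig1 (0.01, SE 0.16) and Insig2 (0.01, SE 0.11) had log2 fold changes near 0, and Srebf2 had -0.08 (SE 0.11). The sterol carrier gene Stard4 had 0.06 (SE 0.13).

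**Figure D2:**
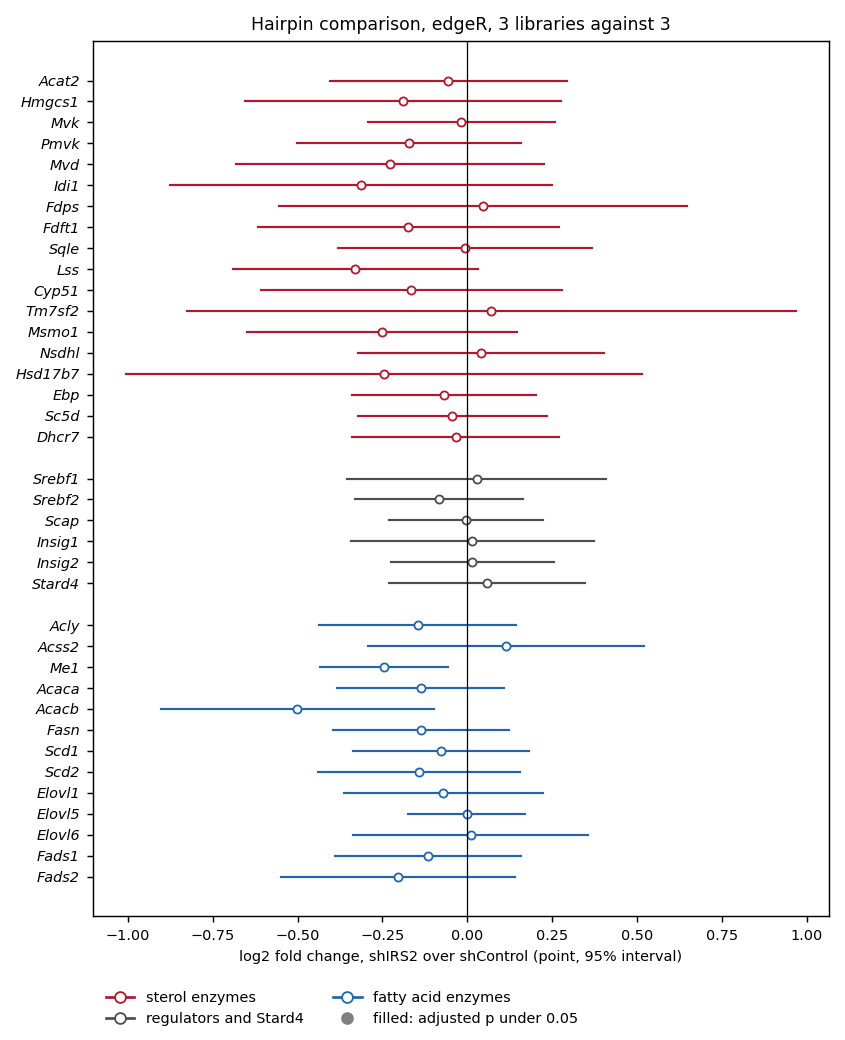
Log2 fold change of shIRS2 over shControl (x axis, points with 95% intervals, edgeR, 3 libraries each) for the 37 genes in rows, by branch. No point is filled, since no gene had an adjusted p under 0.05, and the intervals of Me1 and Acacb alone do not reach 0.

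Same-numbered libraries deviated together, most clearly those numbered 2, though no label pairs them. With the replicate number as a block the same comparison called 0 of the 37 genes and 1 of 13472 (0.00742%). The smallest adjusted p among the members was 0.215, for Lss. At an unadjusted p under 0.05 the blocked fit had 14 of the 37 genes (37.8%), all lower in shIRS2, of which 8 were sterol enzymes and 6 fatty acid enzymes, against 3.99% of all genes lower at that p. They were Hmgcs1, Mvd, Idi1, Fdft1, Lss, Cyp51, Msmo1 and Hsd17b7 in the sterol branch and Acly, Me1, Acaca, Acacb, Scd2 and Fads2 in the fatty acid branch. The blocked log2 fold change was -0.32 (SE 0.07) for Lss, -0.32 (SE 0.08) for Idi1, -0.26 (SE 0.07) for Msmo1 and -0.24 (SE 0.06) for Me1. The set was chosen with earlier results of these data known, so this count is a description.

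By pair, the median log2 ratio of shIRS2 over shControl was -0.11, -0.09 and -0.22 for the sterol enzymes in the pairs numbered 1, 2 and 3, and -0.17, -0.06 and -0.16 for the fatty acid enzymes. Single libraries moved these medians. Over all 6 libraries the sterol median was -0.12. It was -0.02 without shIRS2 3 and -0.03 without shControl 1, and -0.20 without shIRS2 1 and -0.21 without shControl 3. The fatty acid median was -0.06 without shIRS2 3, -0.04 without shControl 1 and -0.20 without shIRS2 1. Fibroblast markers summed to 3709, 3659 and 3675 CPM in shIRS2 libraries and 2941, 3091 and 3570 CPM in shControl libraries. Vim alone had 2082, 2086 and 1966 CPM of these in shIRS2 and 1792, 1871 and 1877 CPM in shControl. Transcripts of the mitochondrial genome summed to 15830.5, 17076 and 14079 CPM in shIRS2 and 12028, 16154 and 13701 CPM in shControl. Enteroendocrine markers summed to 236 to 254 CPM in shIRS2 and 236 to 246 CPM in shControl, nearly all from Cpe, and leukocyte markers to 4.33 to 5.60 CPM in shIRS2 and 3.99 to 5.58 CPM in shControl. Their part in the differences was not tested.

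The replicate number separated the members more than the hairpin did. A test with 2 degrees of freedom for any difference between the numbers 1, 2 and 3, with the hairpin group as a term, called 25 of the 37 genes (67.6%), against 19.6% of all genes. The calls took in 12 of 18 sterol enzymes, 4 of 6 regulators and 9 of 13 fatty acid enzymes. Without shControl 2 the count was 13 and without shIRS2 2 it was 16, while limma on log2(FPKM + 1) called 4. Summed over the 18 sterol enzymes, levels were 953, 853 and 667 CPM in shIRS2 1, 2 and 3 and 1032, 920 and 763 CPM in shControl 1, 2 and 3. The lowest sum in each group was thus in the library numbered 3 and the highest in that numbered 1. The fatty acid enzymes summed to 3388, 3163 and 2835 CPM in shIRS2 and 3766, 3283 and 3139 CPM in shControl, in the same rank within each group. Scd2 and Fasn were the largest parts of these sums, at 1059 and 862 CPM in shIRS2 1 and 1160 and 1061 CPM in shControl 1. Not every enzyme followed this rank, as Elovl6 was highest in the library numbered 2 of each group. The regulators summed to 850.4, 811 and 791 CPM in shIRS2 and 888, 785 and 817 CPM in shControl, where the rank differed.

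**Figure D3:**
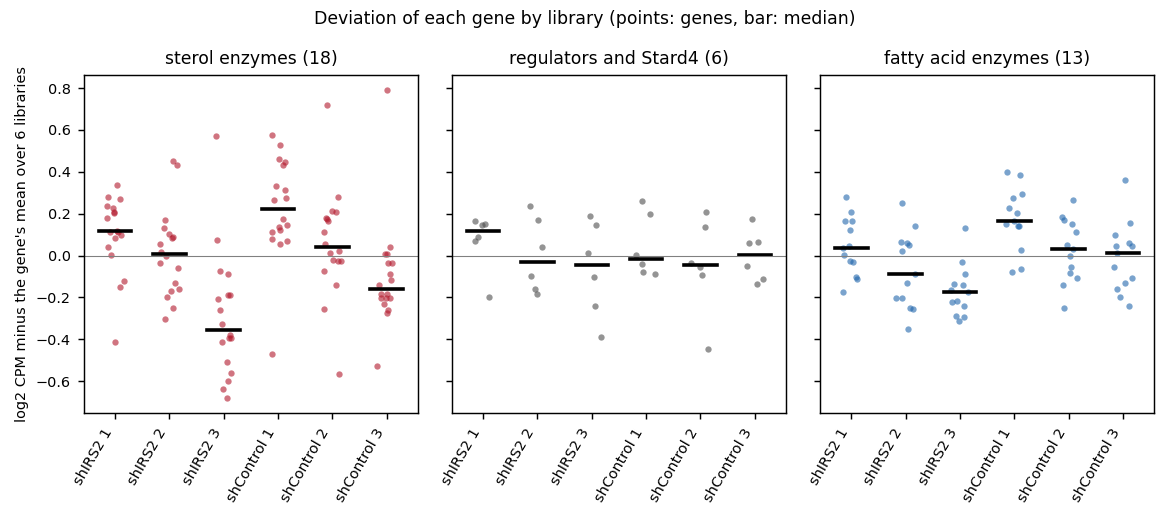
Deviation of log2 CPM from the mean of each gene over 6 libraries (y axis) by library (x axis), with a point for each gene and a bar for the median, in a panel for each branch. The sterol medians are lowest in shIRS2 3 at -0.35 and shControl 3 at -0.16, and highest in shIRS2 1 at 0.11 and shControl 1 at 0.22.

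Set against the libraries numbered 1, those numbered 3 were called lower for 7 of the 18 sterol enzymes and 1 of the 13 fatty acid enzymes. This contrast was chosen after the data were seen and rests on 2 libraries for each number. It called 8 of the 37 genes lower and 0 higher, against 0.134% of all genes lower and 0.104% higher. Of the 18 genes called lower in the whole table the 8 members were 44.4%, and of the 32 called in either direction they were 25.0%. These shares rest on a short list that changed with the setting, with 11 members among 264 called genes without shIRS2 3. The 8 members were the sterol enzymes Idi1, Fdft1, Cyp51, Hmgcs1, Msmo1, Lss and Sqle and the fatty acid enzyme Acly. The log2 fold change was negative in 16 of 18 sterol enzymes (median -0.44) and in 12 of 13 fatty acid enzymes (median -0.22), against a median of 0.00 over all genes.

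Idi1 had 24.3 CPM in shIRS2 3 and 32.2 CPM in shControl 3, against 44.8 CPM in shIRS2 1 and 58.1 CPM in shControl 1. Both libraries numbered 3 lay below both numbered 1, and the log2 fold change of -0.86 (SE 0.10, edgeR adjusted p 0.00472) was the most negative of the 37 genes. Hmgcs1, the synthase that commits acetyl units to mevalonate synthesis, had 48.0 CPM in shIRS2 3 and 62.0 CPM in shControl 3, against 78.7 CPM in shIRS2 1 and 87.5 CPM in shControl 1, a log2 fold change of -0.60 (SE 0.09, adjusted p 0.0185). Cyp51 had 75.5 CPM in shIRS2 3 and 96.7 CPM in shControl 3, against 130 CPM in shIRS2 1 and 135 CPM in shControl 1, a log2 fold change of -0.63 (SE 0.09, adjusted p 0.0121). For both genes the libraries numbered 3 again lay below those numbered 1 in either group. For Fdft1, at the branch point from isoprenoids to squalene, the value was -0.64 (SE 0.10, adjusted p 0.0227). Msmo1 had -0.54 (SE 0.08, adjusted p 0.0200) and Lss -0.52 (SE 0.09, adjusted p 0.0244).

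Sqle, the squalene epoxidase, had 85.6 CPM in shIRS2 3 and 100.4 CPM in shControl 3, against 138 CPM in shIRS2 1 and 129 CPM in shControl 1. Its log2 fold change of -0.52 (SE 0.09, adjusted p 0.0281) lost its call without shIRS2 1, at -0.43. Acly had 192 CPM in shIRS2 3 and 214 CPM in shControl 3, against 246 CPM in shIRS2 1 and 281 CPM in shControl 1. Its log2 fold change of -0.37 (SE 0.07, adjusted p 0.0431) lost its call without shControl 1, at -0.34. Leaving out single libraries gave 64 to 264 called genes in all, against 32 with every library, and 8 to 11 members. All 8 member calls were lost in limma on log2(FPKM + 1), which called 0 genes, and in the fit without the group term, which also called 0. DESeq2 called 8 members, all lower, among 43 genes. Without a filter on low counts 204 genes and 15 members were called. The genomic span of Fdft1 overlaps Ctsb on the opposite strand, and that of Cyp51 overlaps Akap9, so their counts depend on a strand setting that is not given in the sources used here.

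The other 11 sterol enzymes did not pass in this contrast. Hsd17b7 had -0.58 (SE 0.12), Mvd -0.43 (SE 0.11), Acat2 -0.41 (SE 0.09) and the mevalonate kinase gene Mvk -0.18 (SE 0.12). Sc5d, a desaturase of the sterol ring, had -0.23 (SE 0.08), Dhcr7, the reductase of the last step, -0.28 (SE 0.12), and Ebp, a sterol isomerase, 0.04 (SE 0.13). Tm7sf2 had 3.38 CPM in shIRS2 3 and 3.94 CPM in shControl 3, against 1.71 CPM in shIRS2 1 and 1.64 CPM in shControl 1, a log2 fold change of 1.13 (SE 0.30, adjusted p 0.165). It was called higher without shIRS2 3, at 1.43, and it shares its strand and most of its span with Vps51. Within the shIRS2 libraries alone the log2 ratio of number 3 over number 1 was negative in 16 of 18 sterol enzymes (median -0.46) and 13 of 13 fatty acid enzymes (median -0.21). Within the shControl libraries it was negative in 17 of 18 (median -0.45) and 12 of 13 (median -0.16). The median in this contrast was 0.01 for 11 mitochondrial transcripts, 1 of which was called lower, and 0.06 for 9 fibroblast markers, 1 of which was called higher, and their part in the result was not tested.

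**Figure D4:**
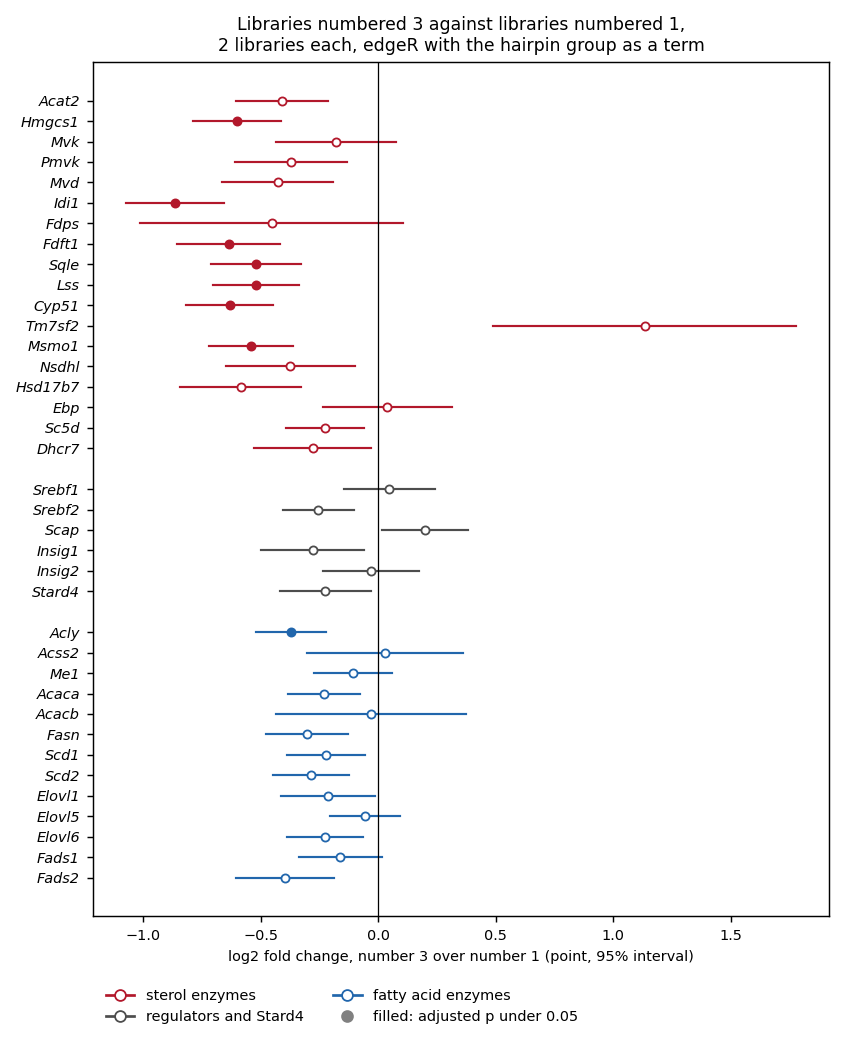
Log2 fold change of the libraries numbered 3 over those numbered 1 (x axis, points with 95% intervals, edgeR with the hairpin group as a term, 2 libraries for each number) for the 37 genes in rows. The 8 filled points, with an adjusted p under 0.05, are all negative, from -0.86 for Idi1 to -0.37 for Acly.

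The libraries numbered 2 differed from those numbered 1 and 3 in another way, with no common direction in either branch. This contrast, chosen with earlier results of these data known, called 8 of the 37 genes higher (21.6%) and 4 lower (10.8%). Over all genes 11.6% were higher and 11.9% lower, so the share of members that were lower was near that of all genes. The median log2 fold change was -0.02 for the sterol enzymes and 0.02 for the fatty acid enzymes. Hsd17b7, which reduces a sterol ketone during demethylation, had 29.5 CPM in shIRS2 2 and 35.5 CPM in shControl 2, against 19.4 and 13.8 CPM in shIRS2 1 and 3 and 23.8 and 15.0 CPM in shControl 1 and 3. Both libraries numbered 2 stood above the other 4, and the log2 fold change was 0.88 (SE 0.10, edgeR adjusted p 3.15e-05). Elovl6, which elongates palmitate, had 254 CPM in shIRS2 2 and 256 CPM in shControl 2, against 220.4 and 174 CPM in shIRS2 1 and 3 and 202 and 186 CPM in shControl 1 and 3, a log2 fold change of 0.39 (SE 0.06, adjusted p 0.000706). Hsd17b7 and Elovl6 passed under every alternative run.

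Among the regulators, Srebf1 and Insig1 moved in opposite directions in the libraries numbered 2. Srebf1 had 101 CPM in shIRS2 2 and 84.7 CPM in shControl 2, against 121 and 131 CPM in shIRS2 1 and 3 and 132 and 130 CPM in shControl 1 and 3. Both libraries numbered 2 lay below the other 4, and the log2 fold change was -0.47 (SE 0.08, adjusted p 0.000926), a call lost without shControl 2, at -0.31. Insig1 had 143 CPM in shIRS2 2 and 140 CPM in shControl 2, against 135 and 92.7 CPM in shIRS2 1 and 3 and 114 and 112 CPM in shControl 1 and 3, a log2 fold change of 0.32 (SE 0.09, adjusted p 0.0148). Its call was lost without shIRS2 2, at 0.30, without shControl 2, at 0.35, and in limma. Stard4 also passed, at 0.23 (SE 0.08, adjusted p 0.0453), a call lost in DESeq2, in limma, in the fit without the group term and without shIRS2 2, shIRS2 3, shControl 1 or shControl 2, at 0.17 to 0.24. Higher values also passed for Hmgcs1 (0.33), Sc5d (0.25), Elovl1 (0.24) and Acaca (0.18), and lower ones for Mvd (-0.42), Scd2 (-0.26) and Fads1 (-0.26). Mvd makes isopentenyl diphosphate and Fads1 desaturates polyunsaturated chains. Without shIRS2 2 the calls numbered 4 and without shControl 2 they numbered 3. Srebf1 overlaps Rai1, and Elovl1 overlaps Cdc20, each on the opposite strand.

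**Figure D5:**
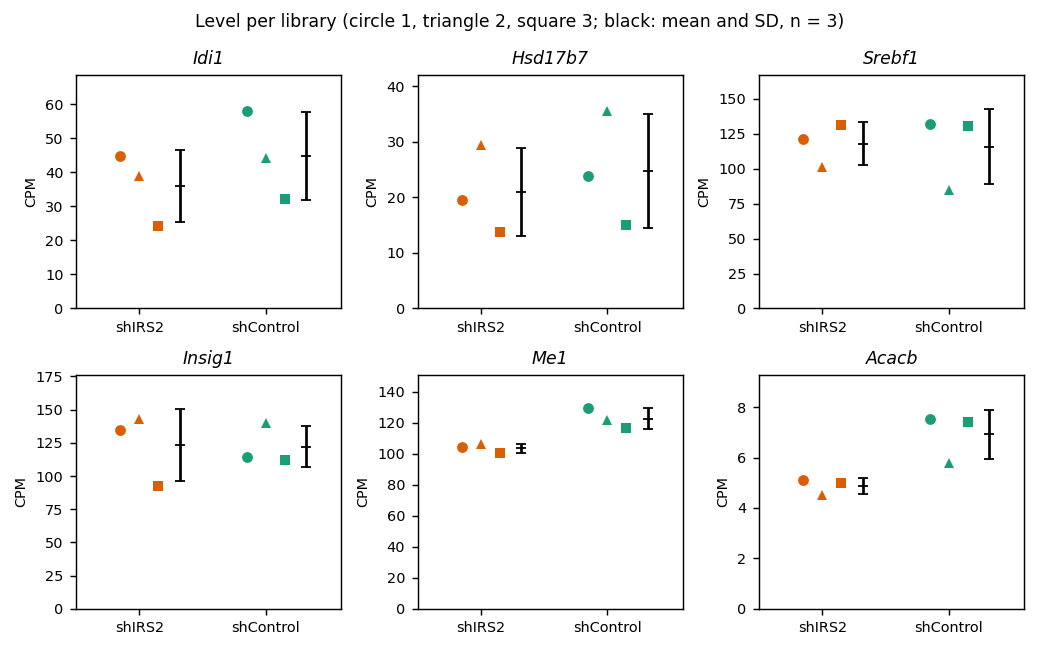
CPM (y axis, from 0) of Idi1, Hsd17b7, Srebf1, Insig1, Me1 and Acacb in each library, with shIRS2 left of shControl, circles for number 1, triangles for 2 and squares for 3, and the mean and SD of each group in black (n = 3). Idi1 is lowest in both squares, Hsd17b7 highest and Srebf1 lowest in both triangles, and only Me1 and Acacb have groups that do not overlap.

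In both groups the sum of the mitochondrial transcripts was highest in the library numbered 2, at 17076 CPM in shIRS2 2 and 16154 CPM in shControl 2. The median log2 fold change of these 11 transcripts in the contrast of number 2 with 1 and 3 was 0.32. Of the 11 transcripts 7 were called higher and 0 lower, against 11.6% of all genes higher and 11.9% lower. Their part in the member results was not tested. Set directly against number 2, the libraries numbered 3 had 13 members lower (35.1%) and 2 higher (5.41%), against 10.2% of all genes lower and 11.2% higher. The 2 that were higher were Srebf1 at 0.49 (SE 0.09) and Tm7sf2 at 0.91 (SE 0.29). Among the called genes the largest decrease was that of Hsd17b7, at -1.17 (SE 0.12), followed by Hmgcs1 at -0.63 (SE 0.09), Idi1 at -0.56 (SE 0.10), Cyp51 at -0.51 (SE 0.09) and Elovl6 at -0.50 (SE 0.08). Contrasts between the numbers share libraries, so their calls are not separate evidence.

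Other genes of lipid metabolism, from lists set for this comparison, differed by hairpin in 0 of 83 tested genes. By replicate number, 10 of 17 genes of sterol uptake, efflux and storage passed the test with 2 degrees of freedom, 9 of 22 further genes of the mevalonate and sterol pathways, 5 of 27 further genes of fatty acid metabolism and 2 of 17 genes of fatty acid oxidation, against the same 19.6% of all genes. Lrp1, a lipoprotein receptor, had 541 CPM in shIRS2 3 and 548 CPM in shControl 3, against 439 CPM in shIRS2 1 and 349 CPM in shControl 1. Both libraries numbered 3 lay above both numbered 1, with a log2 fold change of 0.48 (SE 0.08, adjusted p 0.0281). In that contrast Lrp1 was the 1 gene of sterol uptake, efflux and storage that passed, while 2 of the 22 further mevalonate and sterol genes were lower and 0 higher. In the libraries numbered 2 against 1 and 3, the sterol exporter gene Abcg1 was lower, at -0.56 (SE 0.09), as was Gramd1a, which encodes a sterol transfer protein, at -0.48 (SE 0.08). Pdss1, which makes the side chain of ubiquinone from isoprenoids, was higher, at 0.79 (SE 0.09), and so was Nus1, a subunit of the enzyme that makes dolichol, at 0.32 (SE 0.06). Lower values were found for Lpin1, a phosphatidate phosphatase, at -0.61 (SE 0.10), for Tecr, a reductase of chain elongation, at -0.31 (SE 0.07), and for the lipid-sensing receptor gene Ppard, at -0.46 (SE 0.08). All of these passed at an adjusted p under 0.05.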

How the data were processed

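The authors deposited raw, unnormalized counts for each gene of 6 libraries, and FPKM values in a separate table. The deposited FPKM values equal counts over gene length and over a library total within 0.985 to 1.02 of the summed counts. Per the labels' protocols, RNA of integrity above 7 was poly(A) selected, made into strand-specific libraries with dUTP and read as 150 bp paired ends. Per the submitters' processing notes, reads were placed on mm10. Which aligner, counter and strand setting were used is not given in the sources used here, so counts of overlapping genes and close paralogs are uncertain. Columns beginning NC were read as sh-control and those beginning S as sh-IRS2, from the names alone.

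Counts were tested in R 4.3.3 with edgeR 4.0.16 (quasi-likelihood, robust, TMM, filterByExpr by group), with Benjamini-Hochberg adjustment over all 13472 genes tested and a threshold of 0.05. All tests were two-sided, and adjusted p-values come from edgeR unless another tool is named. Fits used the hairpin group alone, or the group with the replicate number. The second kind leaves 2 residual degrees of freedom, with dispersions shared over genes. Alternatives were DESeq2 1.42.0, its size factors, no filter on low counts, limma 3.58.1 on log2(FPKM + 1) for genes with a mean of at least 0.5 FPKM, and leaving out each library. The procedure was tested on simulated data. Levels are TMM-scaled CPM. Library totals ran from 14991019 to 19790073 counts, and intervals cover counting error and the spread between libraries.

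Deviations of same-numbered libraries from their group means correlated at 0.167, 0.576 and 0.260 for the numbers 1, 2 and 3. Each was above 0.1, and on this ground the numbers were taken to pair the libraries, from the data and not from a label. Deviations within a group cancel out for each gene, so the 3 correlations are not separate evidence. Pairings across unlike numbers were not compared, so a pairing of each number is an assumption of the blocked fit.

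The members, the gene lists and the contrast of number 2 with 1 and 3 were chosen with earlier results of these data known, and the contrasts of number 3 with 1 and with 2 were added after the data were seen. All members could be named, and of each other list up to 4 genes with the smallest p by replicate number and up to 2 by hairpin. Results for some genes are not reported here.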

Additional observations from a re-analysis of the deposited data

How the results depend on the processing

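No member passed the hairpin test under any alternative run. The count of genes called was 0 in the reported fit, 6 without a filter on low counts, 2 in DESeq2 and 1 with the replicate block. With the block the sterol median log2 fold change was -0.12 and the fatty acid median -0.13, and it changed no member's call. Leaving out 1 library moved the sterol median between -0.21 and -0.024 and the fatty acid median between -0.20 and -0.035, without a change of sign. Without both libraries numbered 2, added after the data were seen, they were -0.16 and -0.16.

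For the replicate number, DESeq2 called 1634 genes and 21 members and limma on log2(FPKM + 1) called 309 genes and 4 members, against 2638 and 25. Leaving out 1 library gave 798 to 3774 genes and 13 to 25 members. For number 2 against 1 and 3, the 3169 genes became 1968 in DESeq2, where 5 members were higher, and 1444 in limma, where 4 members were called, 2 higher and 2 lower. Without the group term 5 members were higher. Leaving out 1 library gave 808 to 3687 genes and 3 to 15 members, with 2 to 8 higher and 0 to 7 lower, and the sterol median ranged from -0.036 to 0.037, so its sign depends on single libraries.

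For number 3 against 1, limma and the fit without the group term called 0 genes and 0 members, and the limma sterol median was -0.40. Without a filter on low counts 204 genes and 15 members were called, 14 lower and 1 higher. Leaving out 1 library gave 64 to 264 genes, 8 to 11 members lower and 0 to 1 higher, a sterol median from -0.48 to -0.41 and a fatty acid median from -0.23 to -0.15. No result reversed among called values. The causes of these shifts were not tested. Each replicate number rests on 2 libraries, and members with under 100 counts in a library, such as Fdps and Tm7sf2, have wide intervals.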
